A study of Mus musculus with 13 samples.

Results

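The deposited small RNA table gives each sequence an RNA class, and its class Genome holds sequences that were placed on the mouse genome by position and not under a named RNA. The sequences described here are those of class Genome with a length of 20 or more bases. There were 1164 of them among 18385 sequences of all classes (6.33%), and the same class held 2062 shorter sequences. They lay at 948 loci, where sequences on the same strand within 50 bases of each other count as a single locus. Of these loci 869 held 1 sequence and 79 held several, with 35 at most. The median length was 23 bases and the longest sequence had 81. The 190 sequences of exactly 20 bases summed to between 113 and 1989 RPM over the libraries (RPM is the usual scaling of a sequence's reads to the depth of its library), while the 271 of 19 bases, just outside the limit, summed to between 249 and 2767.

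The study purified RNA that carries glycans (glycoRNA) from mouse myeloid cells. HOXB8 cells, a mouse myeloid progenitor line, were kept undifferentiated with 1 µM estradiol and 100 ng/ml stem cell factor (SCF), and differentiated cells had the same medium without estradiol. Both kinds of HOXB8 cell were fed for 36 h with 100 µM Ac4ManNAz, which cells turn into sialic acid with an azide handle, and with 10 µM Gal and 100 µM GalNAc. Neutrophils came fresh from the bone marrow of wild-type mice, whose age, sex and number the labels leave out; the protocol text is shared by all small RNA samples and does not say separately whether neutrophils were labelled. Input RNA was gel-purified below 300 nt. Biotin libraries hold RNA taken on streptavidin beads after biotin was attached to the azide, and WGA libraries hold RNA taken on beads of wheat germ agglutinin, a lectin that binds sialic acid and N-acetylglucosamine. A further library held biotin-captured RNA digested with PNGase F, an enzyme that cuts N-glycans from asparagine. Input, biotin and WGA libraries were made from undifferentiated and from differentiated HOXB8 cells, the PNGase F library from differentiated cells alone, and input and WGA libraries from neutrophils. These are 9 groups with 1 library each. Poly(A) RNA-seq of mock-treated neutrophils of wild-type genotype (n = 2 libraries) gave the level of the genes that hold the sequences. The exRNaseA libraries were not used here.

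A genome placement says where a sequence fits and not which RNA it came from. Ribosomal RNA (rRNA), made as a 45S precursor that is cut into 18S, 5.8S and 28S rRNA, exists in many genomic copies. Short pieces with small changes can therefore fit elsewhere in the genome. Other small RNAs placed in this way can be pieces of messenger RNA, of introns, of repeats such as the satellite DNA around centromeres, or altered forms of microRNAs (miRNAs), which find their targets through the seed at bases 2 to 8.

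The sequences were grouped into families by the RNA record they resembled. Leading sequences of the families and some further examples are printed here, 5′ to 3′. The position is the one the table gives (build mm10, as the labels name it). The first family is complementary to rRNA, and its leading sequences share a 3′ end that runs against 18S rRNA. Capitals mark the 23 bases that all 4 of them hold.

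52-base form, chr17:39846994-39847045, in Rn18s-rs5: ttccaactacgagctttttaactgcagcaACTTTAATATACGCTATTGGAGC
53-base form, chr6:3201083-3201135: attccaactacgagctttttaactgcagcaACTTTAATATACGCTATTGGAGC
27-base form, chr6:3201083-3201109: agcaACTTTAATATACGCTATTGGAGC
23-base form, chrX:24008510-24008532: ACTTTAATATACGCTATTGGAGC

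The rRNA-like family resembles rRNA in the direction of rRNA itself, mostly with small differences from it. Its leading locus lies on the strand opposite to Il1rapl1, a synaptic receptor gene. No capitals are given, because its match to the 45S sequence has gaps.

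30-base form, chrX:87238357-87238386: cagtcggaacgggacgggagcggccgcggg
matching stretch of the 45S sequence: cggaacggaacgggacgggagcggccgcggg

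Most of the miRNA-like family, 25 of 29, resemble a mature miRNA with inner bases missing. The 3 leading ones are printed with the intact mature forms from RefSeq (GRCm38.p6), and capitals mark the seed.

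near-match of let-7f, chr1:122759216-122759235: tGAGGTAGtagattgtagtt
mmu-let-7f-5p: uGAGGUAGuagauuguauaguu
near-match of let-7a, chr2:43187891-43187910: tGAGGTAGtaggttatagtt
mmu-let-7a-5p: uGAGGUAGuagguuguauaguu
near-match of let-7b and let-7c alike, chr5:28794177-28794197: tGAGGTAGtaggttgttggtt
mmu-let-7b-5p: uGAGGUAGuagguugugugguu
mmu-let-7c-5p: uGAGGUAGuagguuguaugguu

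The next families are repeats. In the satellite-like sequence capitals mark the shared motif TCGCCATATT, and in the sequences of the other repeat they mark a shared ending.

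satellite-like, chr2:98666876-98666900: TCGCCATATTccaggtccttcagtg
shared ending, chr13:69649225-69649247: cgatcattCTGACTGGTGTGAGG
shared ending, chr8:40013857-40013876: cgatcCTGACTGGTGTGAGG

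The last group lies in protein-coding genes. Capitals mark a start of GTGAG or GTAAG, letters with which many introns begin. The sequences shown were among the highest there, except that in Mcl1, which is an example of such a start. Some that are not shown were higher than it, such as that in Epx.

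in Btg2, same strand, chr1:134078892-134078911: GTGAGcacacgtcggggtct
in Mcl1, same strand, chr3:95660009-95660043: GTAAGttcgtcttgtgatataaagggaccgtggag
in Stim2, same strand, chr5:54118742-54118763: ctaagtgactcggctgacgtga
in Cd24a, chr10:43583303-43583326: ttgttgaactctgactgttctctt
in Prg2, chr2:84983182-84983201: gatgggttgatggaagttct
opposite Ppp6r3, chr19:3501599-3501623: agataggaagataggaagttgcttt

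The libraries held between 3110323 and 9922659 reads, and the neutrophil WGA library was the deepest. The sequences of 20 or more bases summed to 4820 RPM in HOXB8 input, 3199 in HOXB8 biotin and 5040 in HOXB8 WGA. They summed to 4460 RPM in differentiated input, 3425 in biotin, 10857 in WGA and 3357 in biotin with PNGase F, and to 1927 in neutrophil input and 9590 in neutrophil WGA. They were thus a small share of every library, from 0.19% of all reads in neutrophil input to 1.09% in differentiated WGA. The shorter sequences of the same class summed to 317065 RPM in HOXB8 WGA and 318686 in differentiated WGA, against 5554 in neutrophil WGA.

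The summed level was higher in WGA than in input in differentiated cells, 2.43-fold (95% counting interval 2.39 to 2.47), and in neutrophils, 4.98-fold (4.85 to 5.11). In undifferentiated HOXB8 cells the ratio was 1.05 (1.03 to 1.07). The mean log2 ratio over the 3 kinds of cell was 1.22 (SD 1.13, n = 3), with p = 0.25 in an exact two-sided sign-flip permutation test, the smallest p that 3 pairs allow. Biotin capture gave 0.66 times the input in HOXB8 cells and 0.77 times the input in differentiated cells. Biotin with PNGase F gave 0.98 times biotin alone (0.963 to 0.998). All intervals cover counting error only; with 1 library per group, the spread between cultures or animals was not measured. The ratio in undifferentiated cells turned below 1 with each library scaled to the summed RPM of the table (log2 -1.14), and the differentiated WGA ratio did so without the sequences found in 1 library (log2 -0.61).

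**Figure D1:**
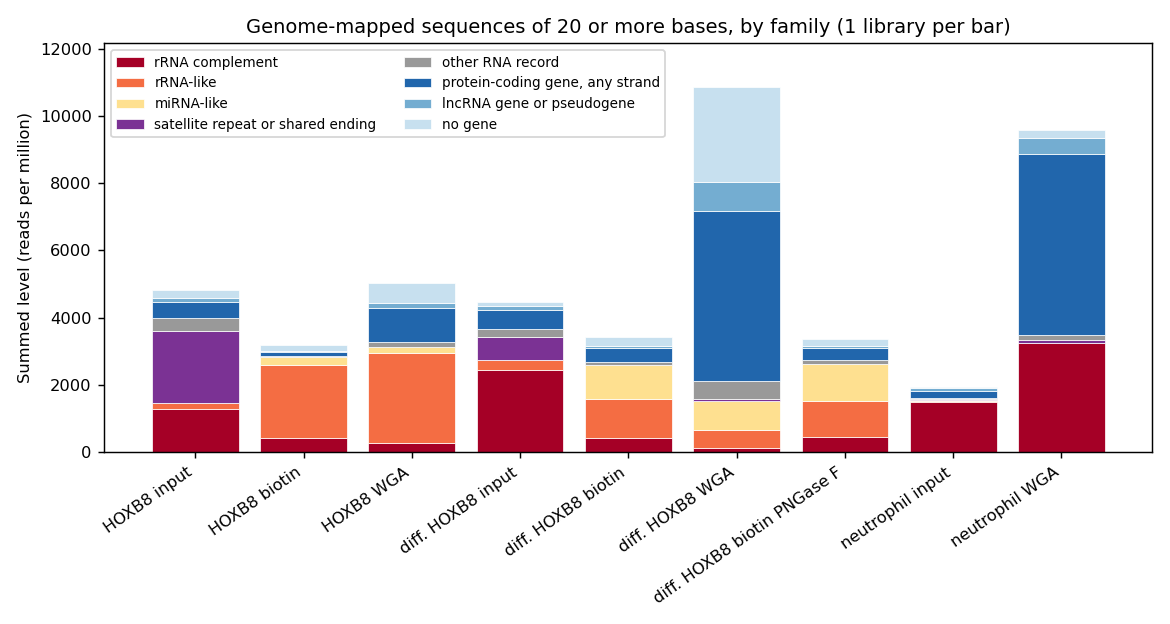
Summed level in RPM (vertical axis) of the genome-mapped sequences of 20 or more bases in each of the 9 libraries (1 library per bar), stacked by family. The purple repeats stand out in the 2 HOXB8 inputs, the orange rRNA-like family in the HOXB8 captures and the blue protein-coding group in differentiated WGA (5064 RPM) and neutrophil WGA (5396 RPM).

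The makeup differed more than the sum. Sequences with over 60% G and C, 253 of the 1164, held 71.2% of the summed level in HOXB8 biotin and 62.6% in HOXB8 WGA, against 4.95% in HOXB8 input. In neutrophils they held 5.46% of input and 7.98% of WGA. Sequences of 35 or more bases held 35.5% in neutrophil WGA, but 1.86% in differentiated WGA and 2.25% in HOXB8 WGA. A fold of at least 4 between RPM + 1 values was counted among sequences with a mean of 10 RPM or more in the pair. In HOXB8 WGA 88 of 152 were higher than input (57.9%, against 54.5% of all sequences in the table) and 62 were lower (40.8%, against 25%). In differentiated WGA 156 of 195 were higher (80.0%, against 40.8%) and 37 lower (19%, against 39.7%). In neutrophil WGA 76 of 93 were higher (81.7%, against 27.8%) and 8 lower (8.6%, against 46.5%). The shares that were higher in differentiated and neutrophil WGA thus lay well above the share in the whole table, while in HOXB8 WGA the share that was higher lay near that of the table and the share that was lower lay above it. Sequences at 10 RPM in 1 library and under 1 RPM in the other 8 were 57.6% of the 1164 and 13.0% of the table. Those of a WGA library that enter this count are higher there by definition, so the excess over the table is not separate from them. For biotin capture the counts were 43 of 109 higher (39.4%, against 42.7%) and 62 lower (56.9%, against 35.5%) in HOXB8 cells. In differentiated cells 42 of 83 were higher (50.6%, against 36.1%) and 34 lower (41%, against 40.5%). After PNGase F 2 of 68 were higher than in biotin alone (2.94%, against 4.88%) and 3 lower (4.41%, against 5.89%), near the share in the table. With 1 library in each group these counts carry no test.

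Of the 1164, 670 (57.6%) reached 10 RPM in 1 library and stayed under 1 RPM in the other 8, and 648 of these were in a WGA library: 456 in differentiated WGA, 143 in neutrophil WGA and 49 in HOXB8 WGA. Of all 18385 sequences, 2388 did so (13.0%), and among the shorter sequences of class Genome 746 of 2062 (36.2%). The biotin libraries held 2 and 14, biotin with PNGase F held 6 and the inputs held 0. At 10 RPM or more, differentiated and neutrophil WGA shared 10 sequences, 1.79% of the first and 4.41% of the second, against 10.6% and 23.4% over all sequences of the table. HOXB8 and differentiated WGA shared 28, 18.8% and 5% of each, against 30.9% and 44.0%. The 2 HOXB8 inputs shared 61 (71.8% and 87.1%, against 76.3% and 72.0%), and differentiated biotin with and without PNGase F shared 48 (53.3% of biotin and 60% of PNGase F, against 63.9% and 67.8%). The detected sequences had a median of 128 reads in differentiated WGA and 114 in neutrophil WGA. In the inputs that median was 4, 5 and 1 reads, and 539 of the 1164 sequences had no read in any of the 3 inputs. Of single-library sequences 249 lay in a protein-coding gene on its own strand, 64 on the opposite strand, 82 in a protein-coding gene whose strand is not in the table used, and 173 in no gene. In the rRNA complement and satellite families there were 1 and 0.

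**Figure D2:**
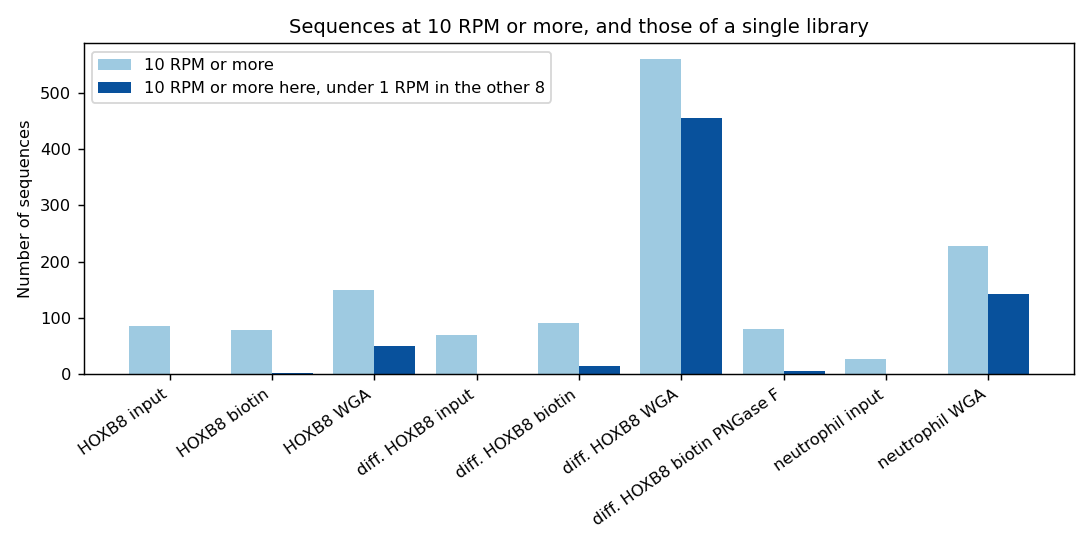
Number of sequences (vertical axis) that reached 10 RPM in each library, and the number among them that stayed under 1 RPM in the other 8. Differentiated WGA has 560 and 456, neutrophil WGA has 227 and 143, and the 3 inputs have no sequence of their own.

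The rRNA complement family held 63 sequences at 21 loci. It summed to 1294 RPM in HOXB8 input, 413 in biotin and 270 in WGA, and to 2444 in differentiated input, 425 in biotin, 117 in WGA and 440 after PNGase F, the order kept for these 4 libraries from here on. In neutrophils it summed to 1478 RPM in input and 3234 in WGA. The family was thus lower in WGA than in input in both kinds of HOXB8 cell, 4.79-fold (4.52 to 5.08) and 20.8-fold (19.5 to 22.2), and higher in neutrophils, 2.19-fold (2.12 to 2.26).

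Its 22 sequences against 18S rRNA share their 3′ end and fell into a shorter set of 22 to 29 bases and a longer set of 42 to 60 bases. The 23-base form stood at 328 RPM in HOXB8 input, 0.314 in biotin and 0.181 in WGA. In differentiated cells it stood at 616, 1.74, 0 and 0 RPM, and in neutrophils at 577 in input and 0.202 in WGA. It was among the 3 highest of the 1164 in every input, and almost no read of it was in any capture. The 52-base form, with the same 3′ end, stood at 304 RPM in HOXB8 input, 0.314 in biotin and 0.724 in WGA. It stood at 815, 0.249, 0.234 and 0.155 RPM in the 4 differentiated libraries, and in neutrophils at 252 in input and 1955 in WGA. Both forms were thus nearly absent from the HOXB8 captures, and in neutrophils only the 52-base form was high in WGA. Its neutrophil ratio was 7.75 (7.22 to 8.34).

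The 2 sets parted in the same way. The 9 shorter sequences summed to 831 RPM in neutrophil input and 10.6 in neutrophil WGA, a level 78.6-fold lower (64.6 to 96.4). The 13 longer ones summed to 352 and 2659 RPM, a level 7.55-fold higher (7.11 to 8.03). In HOXB8 WGA the shorter set summed to 0.181 RPM against 636 in input, and the longer set to 0.724 against 420. In differentiated WGA they summed to 0.234 against 941 and 0.703 against 1124. Neutrophil WGA stood apart from the other captures for the longer set. This set held 2659 of the 3405 RPM of its sequences of 35 or more bases. The larger share of that length given above for neutrophil WGA is thus mostly the same sequences and no separate measure of length. The part of insert length in this difference was not tested. The table gives these sequences 3 loci, on X, 6 and 17, although they share their 3′ end. The locus did not change in order of length: the 24-, 26- and 28-base forms were placed on X, the 25- and 27-base forms on 6. Whether the loci mark separate sources was not tested.

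**Figure D3:**
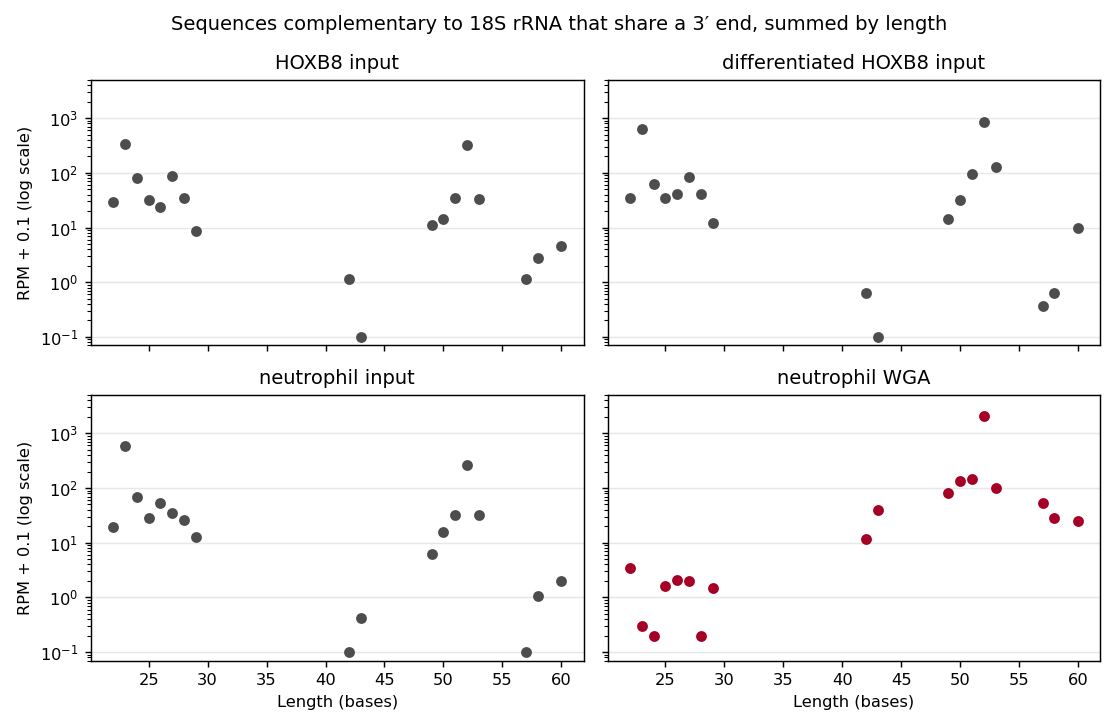
Level in RPM + 0.1 (vertical axis, log scale) of the sequences complementary to 18S rRNA that share a 3′ end, summed by length in bases (horizontal axis), in the 3 inputs and in neutrophil WGA (1 library per panel). The inputs hold both the shorter set, led by 23 bases, and the longer set, led by 52 bases, while neutrophil WGA holds the longer set.

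Of the other complements described here, 14 that run against 28S rRNA and share a 5′ start summed to 103 RPM in HOXB8 input, 57.2 in biotin and 31.7 in WGA, and to 170, 93.5, 0.234 and 71.5 in the 4 differentiated libraries. In neutrophils they summed to 51.8 RPM in input and 13.1 in WGA. The family sums also hold complements that are not described here. The 14 were lower in WGA than in input in each kind of cell, 3.24-fold (2.71 to 3.90), 724-fold (199.6 to 5990) and 3.95-fold (3.12 to 5.02), and the differentiated value rests on few reads. A further 16 complements were also lower in WGA in each kind of cell, 3.87-fold (3.16 to 4.76), 7.43-fold (6.24 to 8.87) and 2.58-fold (2.204 to 3.02).

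The rRNA-like family held 107 sequences at 41 loci, with a median of 80.6% G and C. Of these, 3 matched the 45S sequence exactly, 35 differed from it by 1 edit (a substitution, or a base gained or lost), 35 by 2 and 27 by 3, and 7 had no such match. The family summed to 166 RPM in HOXB8 input, 2181 in biotin and 2662 in WGA. It summed to 282, 1145, 547 and 1079 RPM in the 4 differentiated libraries, and in neutrophils to 50.8 in input and 4.94 in WGA. It was thus 16.1-fold higher in WGA than in input in HOXB8 cells (14.8 to 17.4), 1.94-fold higher in differentiated cells (1.81 to 2.07) and 10.3-fold lower in neutrophils (7.42 to 14.5).

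The locus opposite Il1rapl1, chrX:87238353-87238397, led this family with 35 overlapping sequences. It summed to 32.3 RPM in HOXB8 input, 1026 in biotin and 1383 in WGA, to 8.14, 510, 272 and 397 in the 4 differentiated libraries, and to 7.72 and 0.705 in neutrophil input and WGA. The other 72 sequences had a ratio of 9.58 (8.75 to 10.5) in HOXB8 WGA and 1.00 (0.933 to 1.08) in differentiated WGA. That second value contained 3 sequences of another pattern, at 100 RPM in HOXB8 input, 247 in differentiated input and 35.4 in neutrophil input, with no read in any capture. These 3 were picked out after their values were seen.

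The miRNA-like family held 29 sequences. Of these 25 lay within 4 edits of a RefSeq mature miRNA, and all 25 lacked 1 or more bases inside it. None of the 29 was placed at the hairpin gene of a miRNA (0 of 29), and 7 of the 25 were equally near to 2 mature forms, all of let-7. The let-7 seed GAGGTAG stood in 15 of them. The let-7 family is abundant in differentiated cells and is known for holding back proliferation genes. The 15 summed to 0.534 RPM in HOXB8 input, 198 in biotin and 140 in WGA, to 0.525, 935, 695 and 997 in the 4 differentiated libraries, and to 3.86 and 0.302 in neutrophil input and WGA. They were high in all 5 HOXB8 captures and under 4 RPM in the 3 inputs and in neutrophil WGA.

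The intact let-7 forms were in the inputs too. They summed to 243 RPM in HOXB8 input, 230 in biotin and 352 in WGA, to 1053, 746, 705 and 762 in the 4 differentiated libraries, and to 8557 in neutrophil input against 2.62 in neutrophil WGA. Counted over the 16 near-matches of a mature form with this seed, the near-matches came to 0.22% of the intact level in HOXB8 input, 86.2% in biotin and 39.8% in WGA. In differentiated cells they came to 0.05%, 127%, 98.6% and 132%, and in neutrophils to 0.045% and 11.5%, the latter on few reads. Differentiated biotin held 315 RPM of the 2 sequences nearest to let-7f alone and 92.2 of its intact form. The table may hold part of the intact miRNA reads, since it is titled as one of non-miRNA sequences, so these shares are of what it lists. The leading near-match of let-7f, at chr1:122759216, stood at 222 RPM in differentiated biotin, 163 in WGA and 195 with PNGase F, and had no read in either HOXB8 input.

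**Figure D4:**
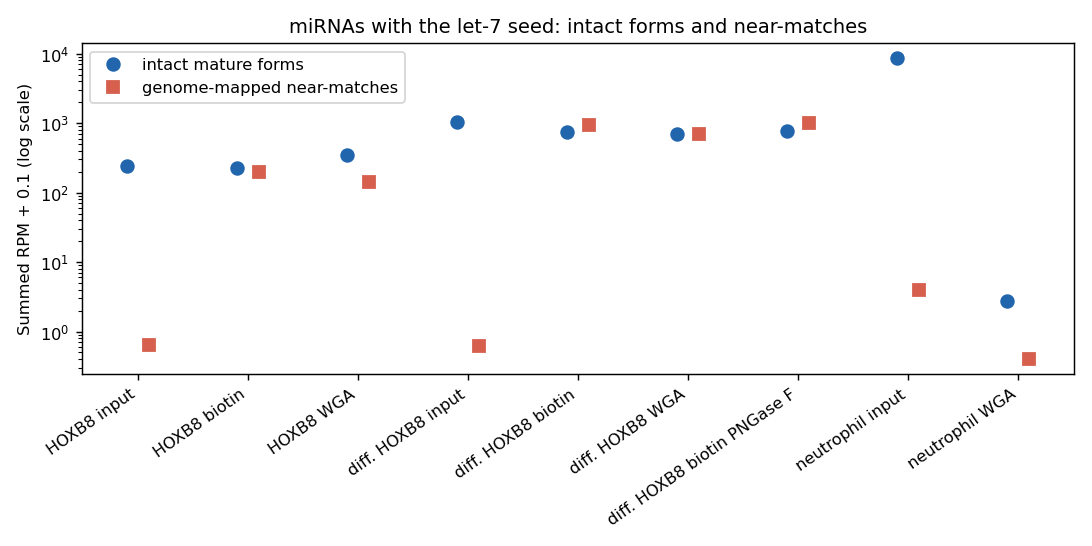
Summed level in RPM + 0.1 (vertical axis, log scale) of intact mature miRNAs with the let-7 seed and of the genome-mapped near-matches, in each library (1 library per point). The near-matches lie beside the intact forms in the HOXB8 captures, such as 946 against 746 RPM in differentiated biotin, and far below them in the 3 inputs.

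The satellite-like family held 31 sequences at 22 loci, of which 24 hold TCGCCATATT on either strand, a motif found in 0.0122% of 32851 RefSeq promoter windows of 300 bases. Major satellite is the repeat of mouse pericentromeric DNA, and the name is used here from its known sequence; no repeat annotation was checked. The family summed to 1639 RPM in HOXB8 input, 3.92 in biotin and 4.35 in WGA. It summed to 514, 0.87, 20.1 and 2.33 RPM in the 4 differentiated libraries, and to 43.4 and 91.4 in neutrophil input and WGA. The 25-base form on chromosome 2 stood at 244 RPM in HOXB8 input, 60.4 in differentiated input and 0.965 in neutrophil input. It had no read in the HOXB8 captures and 5.24 RPM in neutrophil WGA. The family was thus 377-fold (253 to 589) and 25.5-fold (21.8 to 29.99) lower in WGA in the 2 kinds of HOXB8 cell, and 2.11-fold higher in neutrophils (1.76 to 2.54).

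A further 12 sequences end in CTGACTGGTGTGAGG, which is in 0 of those promoter windows, and were placed at 11 loci. They summed to 483 RPM in HOXB8 input and 186 in differentiated input, and to 0.643 in neutrophil input. In HOXB8 WGA they had no read, and in differentiated WGA they summed to 26.4 RPM. Of these, 7 hold CGATC within their first 6 bases, and these 7 summed to 399 RPM in HOXB8 input, 141 in differentiated input and 0.322 in neutrophil input, with at most 0.117 RPM in any capture. The rRNA-like sequence at chr10:69115467-69115488 in Gm40684 starts with the same CGATC and was likewise at 55.8, 144 and 18.3 RPM in the 3 inputs, with no read in any capture.

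cgatc-starting rRNA-like form, chr10:69115467-69115488: cgatccagcaggacggtggcca

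The largest group lay in protein-coding genes and resembled no RNA record: 321 sequences on the strand of the gene, 84 on the opposite strand and 131 in genes whose strand is not in the table used. Whether a position is exonic or intronic was not determined here. The same-strand sequences summed to 64.1 RPM in HOXB8 input, 33.2 in biotin and 534 in WGA, to 86.1, 209, 2894 and 157 in the 4 differentiated libraries, and to 103 and 3019 in neutrophil input and WGA. They were higher in WGA than in input in each kind of cell, 8.33-fold (7.30 to 9.54), 33.6-fold (30.1 to 37.6) and 29.3-fold (26.2 to 32.8). In biotin they were 1.93-fold lower than input in HOXB8 cells (1.60 to 2.33) and 2.43-fold higher in differentiated cells (2.16 to 2.75). After PNGase F they were at 0.75 of biotin (0.693 to 0.811). Of the 321, 249 (77.6%) were single-library sequences. Such a sequence may be listed only through the library where it is high. The WGA ratios of this set thus follow in part from which sequences the table lists, and no ratio without the single-library sequences was computed for it. The opposite-strand set summed to 367 and 423 RPM in HOXB8 and differentiated input. Most of that was Ppp6r3, which encodes a phosphatase subunit and held 350 and 416 RPM of it, 0 RPM in neutrophil input and at most 3.11 RPM in any capture.

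Prg2 led in neutrophil WGA. This gene, which encodes the major basic protein of eosinophil granules, held 9 sequences that summed to 53.0 RPM in neutrophil input and 620 in neutrophil WGA. They came to at most 0.534 RPM in every HOXB8 library. Cd24a, a surface glycoprotein gene, held 370 RPM in neutrophil WGA against 1.61 in input, and Stim2, a calcium sensor gene, held 342 against 0.965. Btg2, an antiproliferative gene, held 230 against 0.322. Itgam, which encodes the CD11b integrin chain, held 145 RPM in neutrophil WGA and 13.2 in differentiated WGA. Ltf, the lactoferrin gene, held 79.3, S100a9, a calgranulin gene, 43.4 and Ngp, a granule protein gene, 42.5. Epx, the eosinophil peroxidase gene, held 161 RPM on its opposite strand, and Prg3, a second major basic protein gene, held 53.1. Differentiated WGA was led by Thbs1, the thrombospondin-1 gene, with 133 RPM (71.9 in neutrophil WGA). Ecpas followed with 48.3, Bicral with 47.2 (102 in neutrophil WGA), Gm29776 with 46 (33.3), Myh9, a non-muscle myosin gene, with 45 and Sf3b2, a splicing factor gene, with 44.2. Myh9, Ecpas and Sf3b2 had no read in neutrophil WGA. Some of these values come from single-library sequences, such as those in Stim2, Btg2, Ngp and Sf3b2. The limit given for the same-strand set holds for them too.

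At 10 RPM or more in their summed sequences, there were 44 such genes in HOXB8 WGA, 261 in differentiated WGA and 129 in neutrophil WGA. Differentiated and neutrophil WGA shared 14 of them (5.36% and 10.9%), among them Itgam, Hsp90b1, Nop56 and Setd2. HOXB8 and differentiated WGA shared 5 (11.4% and 1.92%), and HOXB8 and neutrophil WGA shared 6 (13.6% and 4.65%). No share over all sequences of the table was computed for these gene overlaps. Single-library sequences count in them, so they do not show by themselves that the captures took different genes. In the 2 mock libraries of neutrophil mRNA, the genes of neutrophil WGA had median levels of 98.8 and 98.2 TPM, a unit of transcript level scaled for length and depth, and 49.2% were at 100 TPM or more. The genes of differentiated WGA had medians of 13.4 and 13.6 TPM, with 15.4% at 100 or more, and those of HOXB8 WGA 13.7 and 13.6 TPM, with 22.0%. Over all 20946 protein-coding genes the medians were 0.95 and 1.00 TPM, and 5.69% were at 100 or more. A TPM was found for 431 of the 445 genes (96.9%). No mRNA level of HOXB8 cells was used, so the genes of the HOXB8 libraries were set against mRNA of another kind of cell. The part of this in their lower medians was not tested.

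The mock libraries carried the neutrophil markers at high levels, with S100a9 at 124322 and 125568 TPM, S100a8 at 97106 and 97348, and Ly6g at 447 and 436. The markers of other cells described here were above 0. In the first mock library Cd79a and Ms4a1 of B cells stood at 132 and 48.3 TPM and Cd3e and Cd3d of T cells at 6.75 and 8.14. Those of red cells stood at 1715 (Hbb-bs), 753 (Hba-a1) and 32.4 (Alas2), and those of monocytes at 976 (Ly6c2), 30.03 (Csf1r) and 4.51 (Ccr2). Eosinophil genes, added after their values were seen, stood at 423 and 416 TPM for Prg2, 27.5 and 28.7 for Epx and 20.1 and 18.4 for Prg3. The small RNA libraries came from separate samples, for which no mRNA table was used, and the part of other marrow cells in the Prg2, Prg3 and Epx sequences was not tested.

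Of the 321 same-strand sequences, 14 (4.36%) started with GTAAG or GTGAG, against 2 of 84 (2.38%) on the opposite strand, 2 of 232 (0.86%) in no gene and 0.30% of the whole table. On either strand and at any place, 64.8% of the promoter windows hold one of these 5-base words, which overlap no other word searched. The 14 summed to 3.74 RPM in HOXB8 input, 0 in biotin and 27.5 in WGA, to 2.89, 0.124, 49.3 and 14 in the 4 differentiated libraries, and to 2.25 in neutrophil input and 543 in neutrophil WGA. Neutrophil WGA held most of it: the Btg2 sequence at 230 RPM, that of Nop56, a snoRNP core protein gene, at 87.1, the 2 of Mcl1, an anti-apoptotic gene, at 76.4 and 22.3, and that of Txnip at 41.6. Those of Mcl1 had no read in any other library, and that of Nop56 reached 16.4 RPM in differentiated WGA. Of the 14, 10 were single-library sequences, so the limit given for the same-strand set holds here too. A start with these letters is a description and was not set against annotated exon ends.

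Sequences that lay in no gene (232) summed to 245 RPM in HOXB8 input, 191 in biotin and 618 in WGA, to 115, 271, 2810 and 204 in the 4 differentiated libraries, and to 26.4 and 235 in neutrophil input and WGA. The level was thus highest in differentiated WGA. Of the 232, 173 (74.6%) were single-library sequences, so the limit given for the same-strand set holds here too. The 45 in lncRNA genes and 43 in pseudogenes summed to 644 and 219 RPM in differentiated WGA, and to 79.3 and 400 in neutrophil WGA. The 66 that resembled another RNA record of the table, such as a tRNA, summed to 404 RPM in HOXB8 input and 542 in differentiated WGA. Of all sequences 15 were placed on the mitochondrial genome, and those summed to 110 RPM in neutrophil WGA and 0.965 in neutrophil input. Another 17 were placed on unplaced scaffolds.

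WGA was tested against input over the 3 kinds of cell with limma on log2(RPM + 1), fitted on all 3831 sequences of the table with a mean of 10 RPM or more over the 6 libraries, with Benjamini-Hochberg adjustment. The 3 kinds of cell stood in for replicates. The fit took the spread of each sequence wholly from the trend over all tested sequences. Its p-values thus leave out the spread of the single sequence. Of the 1164 sequences 90 entered the test. None was higher (0 of 90, against 0.444% of the table) and 10 were lower (11.1%, against 12.8%), near the share in the table. At an unadjusted p under 0.05, limma gave 4 higher and 22 lower, together 28.9% of those tested against 28.1% of the table. The edgeR quasi-likelihood test on whole reads recovered from the RPM called 0 higher and 1 lower, and 78 of the 3831 in the table, all lower.

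The 23-base complement of 18S rRNA at chrX:24008510-24008532 fell by 8.77 on the log2 scale (limma adjusted p = 1.1e-06). The 24-base form at the same start fell by 6.10 (limma adjusted p = 0.0033). Of the other 8 called, 4 were further forms of this complement of 25 to 28 bases, with values from -5.51 to -4.57. The 22-base rRNA-like sequence in Gm40684 fell by 5.76 (limma adjusted p = 0.0071) and that opposite Ppp6r3 by 5.51 (limma adjusted p = 0.011). The Ppp6r3 sequence had 0 reads in neutrophil input and 1 in neutrophil WGA, so its call rests on the 2 kinds of HOXB8 cell. A 23-base sequence in Malat1, a nuclear lncRNA, fell by 4.35 (limma adjusted p = 0.044), at 43.5, 89.5 and 64.6 RPM in the 3 inputs, 0 in WGA of both kinds of HOXB8 cell and 30.03 in neutrophil WGA. The 52-base complement of 18S rRNA was called too (-4.63, limma adjusted p = 0.019), although its neutrophil WGA level lay above input, so this call does not hold in each kind of cell. Without the HOXB8 pair limma called 1 of these sequences, without the differentiated pair 0, and without the neutrophil pair 65, of which 19 were higher and 46 lower. In the whole table limma then called 197, 0 and 2371.

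**Figure D5:**
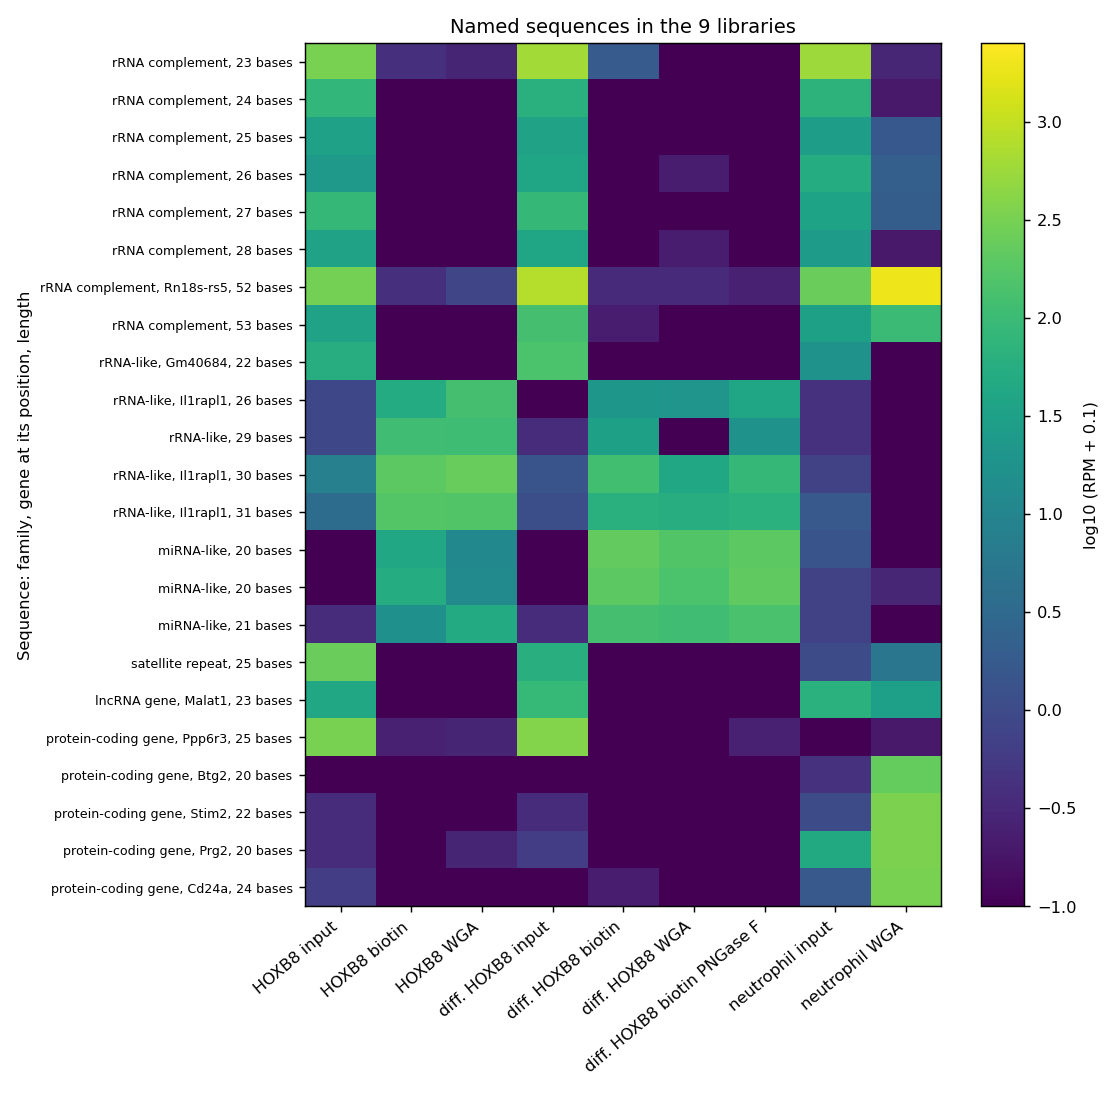
Level of the named sequences as log10(RPM + 0.1) (colour) in the 9 libraries (columns, 1 library each), labelled by family, gene at their position and length in bases. The forms complementary to 18S rRNA are bright in the 3 inputs and dark in the HOXB8 captures. The miRNA-like ones and the rRNA-like ones other than that in Gm40684 are bright in most HOXB8 captures. The Gm40684 sequence has reads in the 3 inputs alone. Sequences in Btg2, Stim2, Prg2 and Cd24a are bright in neutrophil WGA.

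PNGase F was set against biotin alone in each family, with 1 library on each side, so the intervals cover counting error and the spread between libraries was not measured. The ratio was 1.03 (0.984 to 1.09) for the rRNA complements, 0.942 (0.913 to 0.972) for the rRNA-like family and 1.08 (1.05 to 1.11) for the miRNA-like family. It was 2.38 (1.85 to 3.07) for the sequences in lncRNA genes and 1.46 (1.32 to 1.62) for those that resembled another RNA record. The lncRNA value rests on 187 reads against 98, with 3 of the 45 sequences detected after PNGase F and 4 in biotin alone. The satellite-like family had a ratio of 2.67 (1.03 to 7.75) on 15 and 7 reads, and the shared ending had 0 reads against 25, at least 6.68-fold lower if the floor is set at 3 reads. In protein-coding genes the ratio was 0.942 (0.803 to 1.10) on the opposite strand and 0.843 (0.773 to 0.919) where the strand is not in the table used, beside the same-strand value above. It was 0.845 (0.715 to 0.997) in pseudogenes and 0.753 (0.703 to 0.807) in no gene. The intervals of the rRNA complements and of the opposite-strand set include 1.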

How the data were processed

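Small RNA of 9 groups (1 library each) and poly(A) RNA of mock-treated neutrophils (2 libraries) were used. The deposited small RNA values are RPM, which the authors give for each unique sequence with its class and position. The labels name mm10; the aligner, trimming and filters of the small RNA table are not given in the sources used here. Per the submitters' processing notes, the authors' TPM values of the mock libraries come from RSEM 1.3.3 after alignment with STAR 2.4.2a. The whole reads behind the RPM were recovered from its steps (100% of low values whole within 0.05 reads), which gave depths of 3110323 to 9922659 reads. The 3 highest sequences per library, the 3 largest and smallest ratios per contrast among those at a mean of 100 RPM, sequences called by limma and the leading loci were named by rule; gene examples, families and motifs were chosen after values were seen. Members and lists were chosen with earlier results of these data known.

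Families were assigned in order. A sequence was an rRNA complement or rRNA-like if it matched the 45S sequence within 3 edits, or an rRNA record within 2 edits or by 16 shared bases, on the opposite or the same strand. The 45S sequence was rebuilt from the table's own 45S sequences and covers 48.6% of its length. How often a short sequence rich in G and C matches this 45S sequence within 3 edits was not computed. A match to a RefSeq miRNA hairpin or miRNA record within 2 edits made a sequence miRNA-like, and shared bases made the repeats. The rest were grouped by the RefSeq gene (GRCm38.p6) that spans the position, with strand from the RefSeq promoter table. No genome was used to check placements; 8 of 13 sequences inside a promoter window matched it exactly, and 5 rRNA-like ones differed by 1 to 2 bases.

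Ratios are of summed RPM, with exact conditional intervals (95%) on recovered reads and a floor of 3 reads for 0. Intervals and floors cover counting error only, since reads are not independent molecules. limma 3.58.1 (R 4.3.3, trend, kind of cell as block) tested log2(RPM + 1) at an adjusted p of 0.05; a fold on this scale understates change at low levels. The code of the fit was run on simulated data, which is no test of the calls given here. Alternatives changed the pseudocount, the filter on low values, the scaling, the length limit and the libraries used. edgeR 4.0.16 on recovered reads was an alternative added later. Python 3.11.15 with scipy 1.17.1 was used for the rest. Results for 1 locus and 1 marker gene are not reported here.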

Additional observations from a re-analysis of the deposited data

Results flagged for a closer look

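For 4 families the WGA to input ratio lay on one side of 1 in both kinds of HOXB8 cell and on the other side in neutrophils, by counting intervals of 1 library each; the difference between the kinds of cell was not tested. The rRNA complements had a ratio of 2.19 in neutrophils, 0.209 in HOXB8 cells and 0.0481 in differentiated cells. The rRNA-like family had 0.0972 in neutrophils, 16.1 in HOXB8 cells and 1.94 in differentiated cells. The satellite-like family had 2.11 in neutrophils, against 0.00265 and 0.0392. The sequences with the shared ending had 11.1 in neutrophils, where input held 0.643 RPM and WGA 7.16 RPM, so this ratio rests on few reads.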

How the results depend on the processing

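With 1 library per group, the counting intervals leave out the spread between cultures and animals, and the depth of the inputs, with medians of 1 to 5 reads per detected sequence, limits what can be said of sequences low there. No paired analysis was possible because replicate numbers pair no samples, each small RNA group having 1 library. The input and WGA libraries of a kind of cell are already a block in the limma test.

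The log2 ratio of the summed level is given in the order main value, share of the summed RPM in the table, without the 10 highest sequences, 25 or more bases, without the sequences found in 1 library, and without both rRNA families. The last 2 of these were chosen after seeing the data. HOXB8 WGA to input gave 0.06, -1.14, 0.19, -0.29, -0.28 and -0.67, and so changed sign in 4 of 5. Differentiated WGA to input gave 1.28, 0.82, 1.98, 0.60, -0.61 and 2.56. Neutrophil WGA to input gave 2.32, 2.29, 2.85, 2.76, 1.67 and 3.99, always positive. HOXB8 biotin to input gave -0.59, -1.82, -0.61, -0.68, -0.59 and -2.47, always negative. Differentiated biotin to input gave -0.38, -0.79, -0.038, -1.24, -0.47 and 0.10. For PNGase F against biotin the main value was -0.029, with -0.088 at 25 or more bases and 0.018 without the sequences found in 1 library. The mean over the 3 kinds of cell stayed positive, from 0.26 to 1.96. It was 0.67 to 1.80 with a pair left out.

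limma called 10 sequences. It called 5 with a pseudocount of 10, 13 with 0.1, 2 with no filter on low values, 16 with all 9 libraries, 23 after scaling to the summed RPM in the table, and 0 to 65 with a pair left out. The edgeR test called 1. At a mean of 100 RPM or more, few sequences remained (3 to 5 in each pair outside neutrophils): 20% were at least 4-fold higher and 80% lower in HOXB8 WGA and again in HOXB8 biotin, 0% and 100% in differentiated WGA, 25% and 75% in differentiated biotin, and 0% and 0% for PNGase F. Scaled to the table, 28.8% were higher in HOXB8 biotin. The cause of these changes was not tested.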
